A study of Capra hircus with 13 samples.

Results

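The genes described are the nucleoporins and nuclear transport receptors of the goat, chosen by name: every gene whose name begins with NUP, XPO, IPO, KPNA, KPNB or TNPO followed by a number (or XPOT), and *NXF1*. Of the 18138 gene names listed for all libraries, 47 match, and each is listed once in every table. By their known place they comprise 6 outer ring, 5 inner ring, 4 central channel, 2 nuclear basket, 2 cytoplasmic face, 1 mobile and 2 membrane nucleoporins, 7 importin alpha genes, 11 genes of the importin beta family, 6 exportins and the mRNA export receptor *NXF1*.

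Nuclear pore complexes are the passages through the nuclear envelope, built from copies of several protein rings around a central channel that is filled with phenylalanine-glycine repeats. Proteins with a nuclear localization signal are recognised by an importin alpha adaptor that binds importin beta (*KPNB1*), other importins bind their cargo directly, and exportins carry proteins and RNAs out. The oocyte stores the mRNAs from which the first embryonic nuclei are built, and these stores are replaced as the embryonic genome is activated during the maternal-to-zygotic transition (MZT).

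The mRNA of 13 libraries was measured by Smart-seq2 RNA-seq and is given as FPKM, fragments scaled by exon length and by the mapped fragments of the library. Of these, 3 were MII oocytes (mature oocytes arrested in meiosis), 3 were 4-cell and 3 were 8-cell stage embryos, all untreated and taken from earlier studies of the same authors. Another 4 libraries were pools of 8-cell stage embryos made by *in vitro* fertilization (IVF) and injected as zygotes 8 h after IVF with 20 µM siRNA, 2 with a universal negative control siRNA (NC) and 2 with a mixture of siRNAs against *YTHDF2* (YTHDF2-KD). YTHDF2 is a reader of N6-methyladenosine that promotes mRNA decay. The titles of the NC libraries call them WT, and their treatment label gives the NC siRNA injection. The labels give 72 h after IVF as the first time of collection. The injected groups share the injection and *in vitro* culture. No animal, genotype or litter is named, so p-values measure the spread between these libraries, which may be technical. A library is a whole oocyte or embryo sample, and fewer cells holding an mRNA cannot be told apart from less of it per cell.

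The untreated libraries held 26853876 to 42495116 fragments, recovered from the steps of the FPKM values. Genes listed for all untreated libraries took 65.0% to 66.4% of the fragments in MII and 94.7% to 97.0% in the embryos. The depth of the injected libraries was not recovered. Between libraries of a group the 47 genes correlated at 0.953 to 0.995 on the log2 scale. Over all genes averaging 1 FPKM or more the range was 0.874 to 0.981, with the lowest value in 8-cell embryos. The 8-cell replicate 1 stood apart from the other 8-cell libraries, with 6 of the 47 genes more than 2-fold away. The sum of 9 oocyte markers was 1613 to 2694 FPKM in MII, 2251 to 3566 in 4-cell and 2545 to 3081 in 8-cell libraries. The 12 cumulus and granulosa cell markers summed to 58.1 to 75.7, 69.9 to 76.7 and 99.3 to 151 FPKM in the same groups, with *AMH* listed at 0 throughout, and 3 sperm markers summed to under 1. Their part in the stage values was not tested.

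The 47 mRNAs spanned from 0.0043 FPKM (*NUP210*, 8-cell replicate 2) to 3352 FPKM (*KPNA7*, YTHDF2-KD replicate 1). The importin alpha gene *KPNA7* had the highest group mean in all 5 groups, and the inner ring gene *NUP35*, the central channel gene *NUP54*, the outer ring gene *NUP37* and the importin alpha gene *KPNA2* were also abundant. In MII the mean of 5 genes reached 100 FPKM, 13 lay between 10 and 100, 20 between 1 and 10, and 9 below 1. In 8-cell embryos these counts were 7, 13, 20 and 7. Parts of one structure therefore differed widely in mRNA. The 2 membrane genes chosen by name, for example, never exceeded 2.04 FPKM, and *NUP210*, which anchors the pore in the envelope, rested on 1 to 277 fragments per untreated library. *NDC1*, a membrane part of the pore with another name, lay between 8.02 and 14.6 FPKM in the 13 libraries.

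**Figure D1:**
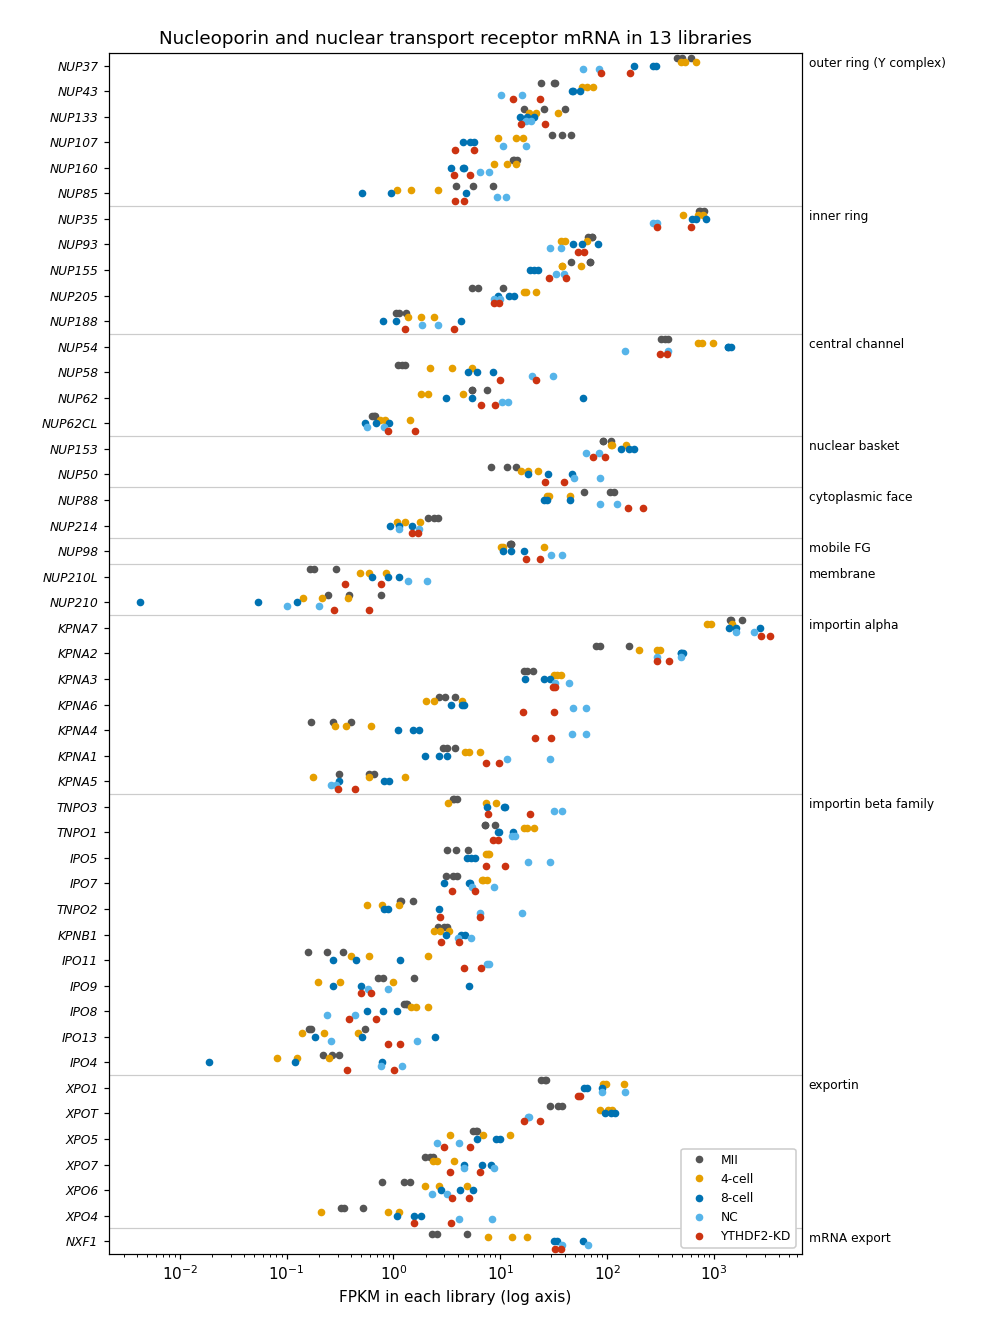
Level of each of the 47 genes in each of the 13 libraries. The horizontal axis is FPKM on a log scale, each point is a library coloured by group, and genes are ordered within their role by mean level. *KPNA7* lies at or above 864 FPKM in all libraries, while all importin beta family genes lie below 40.

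The importin alpha adaptors were dominated by *KPNA7*, a form known from oocytes and early embryos. Its level was 1417, 1448 and 1828 FPKM in MII, 864, 1477 and 927 in 4-cell, and 2705, 1373 and 1596 in 8-cell libraries. These ranges overlapped between 8-cell and both earlier groups, and no stage comparison of *KPNA7* passed the test (limma, Benjamini-Hochberg adjusted p 0.173 for 4-cell against MII and 0.578 for 8-cell against MII).

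*KPNA2*, the importin alpha that is abundant in dividing cells, measured 86.1, 160 and 78.2 FPKM in MII. It measured 199, 314 and 293 FPKM in 4-cell and 513, 487 and 484 FPKM in 8-cell embryos, and the 3 groups did not overlap. The rise over MII was 1.35 on the log2(FPKM + 1) scale in 4-cell embryos (SE 0.28, adjusted p = 0.0057) and 2.26 in 8-cell embryos (SE 0.28, adjusted p = 3.4e-04). Between 4-cell and 8-cell embryos the change of *KPNA2* was 0.91 and did not pass the test (SE 0.28, adjusted p = 0.076). *KPNA7* was 16.5, 9.04 and 23.4 times *KPNA2* in the MII libraries, 4.34, 4.71 and 3.17 times in 4-cell embryos and 5.27, 2.82 and 3.30 times in 8-cell embryos. Of the summed importin alpha FPKM, *KPNA2* held 6.50% ± 2.97 (SD, n = 3) in MII, 19.4% ± 3.25 (n = 3) in 4-cell and 21.5% ± 5.09 (n = 3) in 8-cell embryos.

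The remaining importin alpha genes were far lower. *KPNA3* measured 20.0, 17.6 and 16.5 FPKM in MII, 34.0, 31.9 and 37.1 in 4-cell embryos and 17.1, 25.6 and 29.2 in 8-cell embryos. It rose in 4-cell embryos (0.90, SE 0.21, adjusted p = 0.011), and its 8-cell range overlapped that of MII. *KPNA1* measured 3.18, 3.72 and 2.93 FPKM in MII, 6.47, 5.14 and 4.66 in 4-cell embryos and 1.96, 3.18 and 2.68 in 8-cell embryos, with no comparison past the threshold. *KPNA6* lay between 2.01 and 4.59 FPKM in all untreated libraries and *KPNA5* between 0.18 and 1.27. *KPNA4* was listed at 0.17, 0.27 and 0.40 FPKM in MII, 0.36, 0.62 and 0.29 in 4-cell embryos, and 1.51, 1.72 and 1.10 in 8-cell embryos. The 8-cell libraries were the highest for *KPNA4*, on 122 to 173 fragments, but its mean was too low for the test, which required 1 FPKM on average over the libraries.

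**Figure D2:**
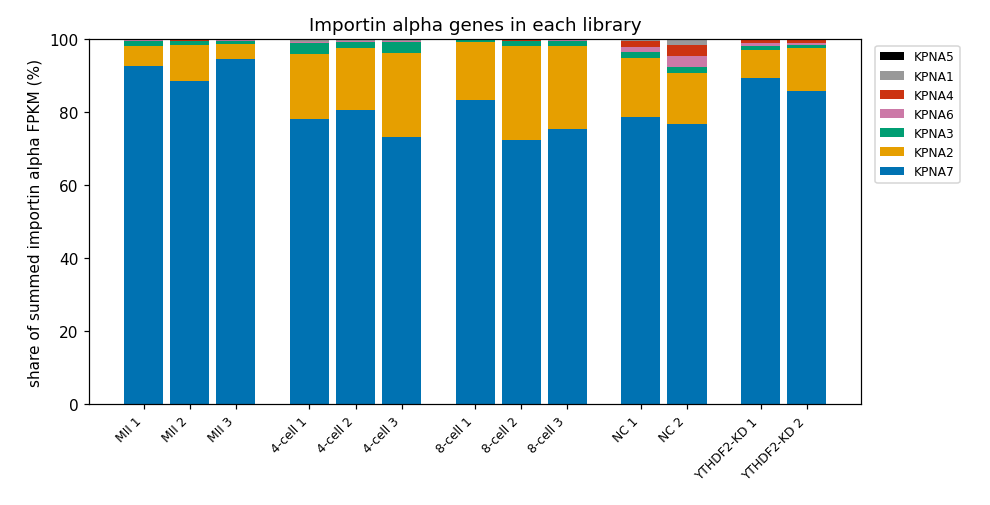
Share of each importin alpha gene in the summed importin alpha FPKM, in percent, with 1 stacked bar per library. *KPNA7* holds most of the sum in every library, and the *KPNA2* part is 4.05% to 9.80% in MII against 15.8% to 25.7% in the untreated embryos.

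Between MII oocytes and 4-cell stage embryos, which spans fertilization and the first divisions, 12 of the 38 genes tested were higher and 2 were lower, among 9090 genes tested in all. The background was 24.7% of all genes higher and 6.42% lower, against 31.6% and 5.26% of these genes. Their median change was 0.25 on the log2 scale, beside 0.29 over all genes tested. By the rule of the study (more than 2-fold, with p below 0.05 before adjustment) 9 were higher and 3 lower, beside 16.7% and 6.06% of all genes. The genes not tested for low level were *IPO4*, *IPO11*, *IPO13*, *KPNA4*, *KPNA5*, *NUP210*, *NUP210L*, *NUP62CL* and *XPO4*.

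Export receptors held the largest rises. *XPO1*, which exports proteins with a leucine-rich signal, measured 23.8, 26.3 and 26.4 FPKM in MII and 144, 97.0 and 91.3 in 4-cell embryos, a rise of 2.05 (SE 0.22, adjusted p = 2.6e-04). *XPOT*, the exporter of tRNA, measured 37.6, 34.6 and 29.0 FPKM in MII and 111, 102 and 85.4 in 4-cell embryos, a rise of 1.53 (SE 0.17, adjusted p = 3.7e-04). *NXF1*, the receptor of bulk mRNA export, measured 2.57, 4.88 and 2.30 FPKM in MII and 12.9, 17.6 and 7.65 in 4-cell embryos, a rise of 1.67 (SE 0.36, adjusted p = 0.0074). For these genes no 4-cell library overlapped an MII library. The summed FPKM of the 6 exportins was 68.8 ± 4.11 (SD, n = 3) in MII and 224 ± 37.3 (n = 3) in 4-cell embryos, and *XPO1* and *XPOT* held most of it.

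Of the importin beta family, 3 of 8 genes tested rose in 4-cell embryos, and their levels were under 21 FPKM. *TNPO1*, which imports many RNA-binding proteins, measured 8.94, 7.11 and 7.10 FPKM in MII and 20.5, 17.8 and 16.5 in 4-cell embryos, a rise of 1.15 (SE 0.20, adjusted p = 0.0029). *IPO5* and *IPO7*, importers of ribosomal proteins among other cargo, rose by 0.81 and 0.82 (adjusted p = 0.016 and 0.027). *IPO5* was at 3.87, 4.93 and 3.14 FPKM in MII and 7.66, 7.39 and 7.80 in 4-cell embryos, and *IPO7* was at 3.96, 3.62 and 3.10 and then 6.72, 7.50 and 6.83. *KPNB1*, the partner of all importin alpha adaptors, measured 3.15, 2.62 and 2.95 FPKM in MII, 2.72, 3.34 and 2.40 in 4-cell embryos and 3.09, 4.66 and 4.25 in 8-cell embryos. Its change was −0.04 in 4-cell embryos (SE 0.22, adjusted p = 0.918), with a 95% interval from −0.54 to 0.47.

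Among the nucleoporins of the 4-cell stage, parts of one subcomplex went apart. *NUP43* of the outer ring rose by 1.12 (SE 0.18, adjusted p = 0.0018), from 32.7, 31.9 and 24.1 FPKM to 58.3, 64.0 and 72.7. *NUP107*, a core scaffold of the same ring, fell by 1.47 (SE 0.24, adjusted p = 0.0021), from 46.0, 37.8 and 30.6 FPKM to 9.44, 16.4 and 13.9. The ratio of *NUP43* to *NUP107* was 0.71, 0.84 and 0.79 in MII and 6.17, 3.90 and 5.22 in 4-cell embryos.

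Of the central channel genes, *NUP54* rose by 1.24 (SE 0.15, adjusted p = 5.4e-04), from 369, 346 and 319 FPKM to 712, 777 and 969. *NUP58* rose by 1.04 (SE 0.30, adjusted p = 0.026), from 1.11, 1.28 and 1.21 FPKM to 2.17, 5.41 and 3.52. *NUP62*, their partner in the channel, was at 5.44, 5.42 and 7.45 FPKM in MII and 2.11, 4.48 and 1.81 in 4-cell embryos. All 4-cell libraries lay below all MII libraries, but *NUP62* did not pass the test (SE 0.83, adjusted p = 0.421). The spread of this shared fit includes 8-cell replicate 1, at 59.3 FPKM. The inner ring gene *NUP205* rose by 1.26 (SE 0.26, adjusted p = 0.0061), from 6.20, 10.7 and 5.42 FPKM to 17.3, 21.5 and 16.8. *NUP88* of the cytoplasmic face fell by 1.44 (SE 0.32, adjusted p = 0.0078), from 107, 115 and 60.2 FPKM to 28.4, 44.8 and 27.4. *NUP35*, the inner ring gene of highest level, measured 733, 726 and 796 FPKM in MII, 513, 710 and 779 in 4-cell embryos and 615, 844 and 681 in 8-cell embryos, with overlapping ranges.

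The split of calls depended on the scale of the libraries. The FPKM of the 18138 shared names summed to 276228 to 288620 in MII, 388412 to 428310 in 4-cell and 369990 to 390019 in 8-cell libraries, so the share of higher among all calls was 79.4% in 4-cell embryos, and 50.5%, 42.1% and 52.6% after median-ratio rescaling, scaling to the same sum and quantile normalization. Of the genes described 9 were then higher and 7 lower, 6 higher and 9 lower, and 9 higher and 6 lower, beside 12.1% and 11.8%, 9.59% and 13.2%, and 12.6% and 11.4% of all genes. Those of *NUP43*, *NUP54*, *NUP88*, *NUP107*, *NXF1*, *TNPO1*, *XPO1* and *XPOT* were kept in all 18 alternatives. *KPNA2* and *NUP205* were lost at the same sum alone (adjusted p = 0.0666 and 0.0687). *KPNA3*, *IPO5* and *IPO7* were lost under all 3 scalings (0.171 to 0.234, 0.11 to 0.26 and 0.179 to 0.297), where the rises of *IPO5* and *IPO7* went down to 0.35 and 0.37. *NUP58* was lost at the same sum (0.141), with no filter on low values (0.0596) and with the replicate block (0.0535), and *IPO7* with the block (0.0564). *IPO7* was also lost without any 1 of the 6 libraries compared (adjusted p 0.0572 to 0.0898), *IPO5* without MII replicate 1 or 3 or 4-cell replicate 3 (0.0502 to 0.0647), and *NUP58* without any MII library, 4-cell replicate 2 or 4-cell replicate 3 (0.0536 to 0.0851). Without 8-cell replicate 1, which shares the fit, 5 genes were lower.

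In 8-cell embryos against MII, close to the activation of the embryonic genome, 12 of the 38 genes were higher and 5 lower, or 31.6% and 13.2%. The background was 27.3% of all genes higher and 10.0% lower, and the median change was 0.33 for these genes and 0.37 over all genes. By the rule of the study 10 were higher and 6 lower, beside 19.8% and 8.14% of all genes. The largest change was that of *NXF1*, at 59.1, 31.9 and 34.1 FPKM, a rise of 3.32 over MII (SE 0.36, adjusted p = 1.9e-04).

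Of the 3 central channel genes tested, 2 rose. *NUP54* measured 1355, 1438 and 1331 FPKM in 8-cell embryos, a rise of 1.99 (SE 0.15, adjusted p = 3.3e-05). It was above *KPNA7* in 8-cell replicate 2 and in 4-cell replicate 3. *NUP58* measured 8.50, 6.0 and 5.01 FPKM, a rise of 1.74 (SE 0.30, adjusted p = 0.0018). *NUP62* was at 59.3 FPKM in 8-cell replicate 1 but at 3.11 and 5.39 in the other libraries of that stage, so its mean rests on 1 library. It did not pass (adjusted p = 0.524), and its change of 0.73 turned below 0 without 8-cell replicate 1. In the RefSeq table *NUP62* overlaps *ATF5*, and the called genes *XPOT*, *XPO6*, *NUP153* and *NUP37* overlap other listed genes (*C5H12orf56*, *LOC102177858*, *LOC106503510* and *LOC102173371*), so their reads may be split or mixed.

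Of the 5 exportins tested, 4 were above MII in 8-cell embryos by the test. *XPOT* measured 119, 95.9 and 108 FPKM (rise 1.65, SE 0.17, adjusted p = 1.7e-04) and *XPO1* 61.0, 88.9 and 64.5 FPKM (rise 1.43, SE 0.22, adjusted p = 0.0010). *XPO7*, a receptor of broad cargo, measured 2.36, 2.19 and 1.99 FPKM in MII and 8.11, 4.55 and 6.78 in 8-cell embryos (rise 1.21, SE 0.25, adjusted p = 0.0051). *XPO6*, the exporter of actin, measured 1.42, 1.25 and 0.78 FPKM in MII and 4.17, 2.78 and 5.57 in 8-cell embryos (rise 1.24, SE 0.32, adjusted p = 0.014). *XPO5*, which exports microRNA precursors, ranged from 3.37 to 12.4 FPKM over the untreated libraries and did not pass.

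Both basket genes chosen by name passed the test on the scale as deposited, and neither call was kept at the same sum. *NUP50*, which helps release cargo from importin alpha, was at 8.21, 11.5 and 14.0 FPKM in MII and 46.4, 28.0 and 18.2 in 8-cell embryos (rise 1.31, SE 0.33, adjusted p = 0.012). *NUP153*, the basket's anchor, was at 108, 91.1 and 92.1 FPKM in MII, 108, 150 and 111 in 4-cell embryos and 135, 159 and 179 in 8-cell embryos (rise 0.69 over MII, SE 0.18, adjusted p = 0.016). *TPR*, the basket part of another name, was at 37.4, 32.8 and 36.3 FPKM in MII, 20.1, 21.4 and 17.9 in 4-cell embryos and 17.0, 18.5 and 19.6 in 8-cell embryos. It fell against MII by 0.81 and 0.91 on the log2 scale (adjusted p = 0.0048 and 0.0021), and both calls were kept in all 18 alternatives. *TNPO3*, importer of splicing factors rich in serine and arginine, was at 3.89, 3.65 and 3.6 FPKM in MII, 3.24, 9.10 and 7.30 in 4-cell embryos and 10.7, 7.57 and 11.1 in 8-cell embryos (rise 1.18, SE 0.32, adjusted p = 0.017). *NUP98*, a mobile nucleoporin of the channel, lay between 10.2 and 25.6 FPKM in the untreated libraries with overlapping groups.

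The falls in 8-cell embryos were mostly of outer ring genes, 3 of whose 6 members passed the test. *NUP107* measured 5.65, 5.18 and 4.48 FPKM (fall against MII −2.67, SE 0.24, adjusted p = 8.8e-05). *NUP160* measured 13.3, 13.3 and 14.3 FPKM in MII, 8.78, 13.9 and 11.7 in 4-cell embryos and 4.52, 4.61 and 3.42 in 8-cell embryos (−1.50 against MII, SE 0.22, adjusted p = 7.7e-04). *NUP37* measured 498, 449 and 607 FPKM in MII, 529, 488 and 674 in 4-cell embryos and 176, 267 and 283 in 8-cell embryos (−1.11, SE 0.22, adjusted p = 0.0038). All 8-cell libraries lay below all MII libraries for these genes. *NUP43* of the same ring stayed above MII, at 47.4, 55.7 and 46.3 FPKM (0.74, SE 0.18, adjusted p = 0.010), but this call was lost under all 3 scalings (adjusted p 0.202 to 0.214). *NUP133* had overlapping ranges, from 15.3 to 40.2 FPKM over the untreated libraries.

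*NUP85* of the outer ring was at 5.56, 8.56 and 3.83 FPKM in MII, 1.08, 2.61 and 1.47 in 4-cell embryos, and 4.72, 0.95 and 0.51 in 8-cell embryos. It missed the threshold at both stages (adjusted p = 0.064 and 0.051), and without the high 8-cell replicate 1 it passed at both (0.00833 and 0.00214), as it did under all 3 scalings (0.013 to 0.0316 and 0.00486 to 0.0254) and, in 8-cell embryos, with voom on the recovered fragments (0.0337). Outside this ring, *NUP155* of the inner ring fell from 68.6, 69.6 and 45.3 FPKM in MII through 37.8, 56.4 and 38.0 in 4-cell embryos to 22.6, 19.1 and 20.8 in 8-cell embryos (−1.49 against MII, SE 0.23, adjusted p = 0.0011). *NUP88* measured 44.4, 25.6 and 27.5 FPKM in 8-cell embryos (−1.49, SE 0.32, adjusted p = 0.0053).

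**Figure D3:**
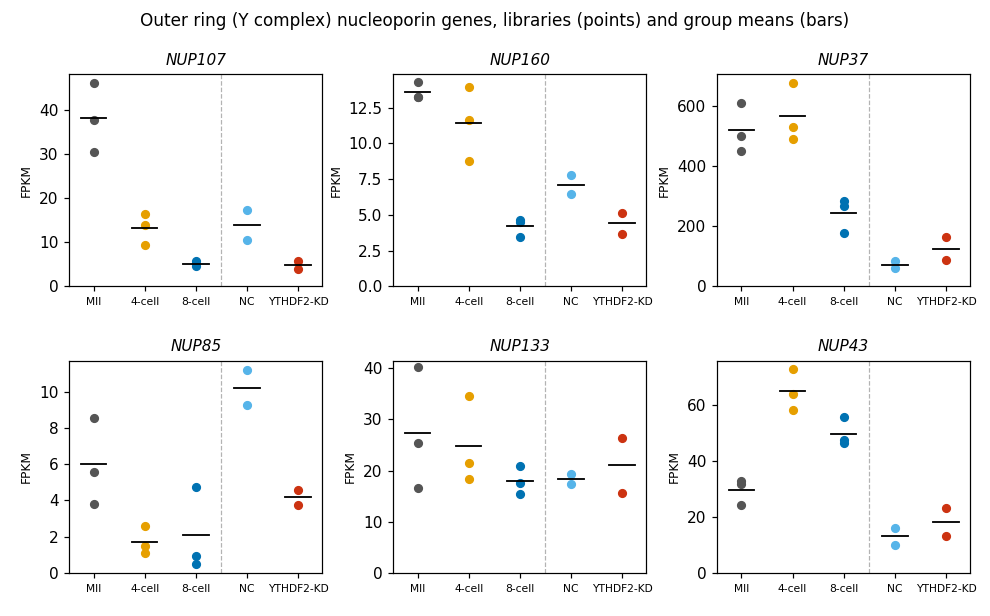
The 6 outer ring genes, with FPKM on a linear vertical axis from 0, each point a library and each bar a group mean. *NUP107*, *NUP160* and *NUP37* are lower in all 8-cell libraries than in all MII libraries, *NUP43* is higher, and the injected groups right of the dashed line were normalized apart.

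For 8-cell against MII, the share of higher among all calls was 73.2%, and 50.9%, 48.1% and 47.8% after median-ratio rescaling, scaling to the same sum and quantile normalization, and the genes described were then 10 higher and 7 lower, 7 and 7, and 9 and 9. Of all genes 16.1% were then higher and 15.6% lower, 14.9% and 16.1%, and 15.7% and 17.1%. Of the 17 calls 12 were kept in every alternative run, among them all 5 falls, with 18 alternatives each but 17 for *NUP58* and *XPO7*, which average under 5 FPKM and were not in the test of genes above that level. *NUP153* was lost under all 3 scalings, where its rise was 0.21 to 0.31 (adjusted p 0.298 to 0.428), *TNPO3* at the same sum and after quantile normalization (0.0929 and 0.0508), and *XPO6* and *NUP50* at the same sum (0.0521 and 0.0675). *NUP153*, *TNPO3* and *XPO6* were also lost without MII replicate 3 (adjusted p = 0.0533, 0.051 and 0.0537) or 8-cell replicate 3 (0.064, 0.0622 and 0.0559), and *NUP50* without MII replicate 1 (0.0538).

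Between the 4-cell and 8-cell stage 2 of the 38 genes were higher and 4 lower, or 5.26% and 10.5%, beside a background of 3.06% and 5.24% of all genes. By the rule of the study these counts were 1 and 4, beside 4.55% and 4.28% of all genes. The rises were those of *NXF1* (1.65, SE 0.36, adjusted p = 0.026) and *NUP54* (0.76, SE 0.15, adjusted p = 0.021). The falls were those of *NUP160* (−1.25, adjusted p = 0.011), *NUP37* (−1.23, adjusted p = 0.013), *NUP107* (−1.20, adjusted p = 0.021) and *NUP155* (−1.02, adjusted p = 0.027). All 6 outer ring genes chosen by name had a change below 0, with a median of −0.80, beside 0.03 for all 38 genes and 0.07 over all genes tested, but that of *NUP85* was −0.04 and turned above 0 at the same sum and without 4-cell replicate 2, 8-cell replicate 2 or 8-cell replicate 3. Of the outer ring parts of other names, *SEC13* was at 1.03 (adjusted p = 0.148), *SEH1L* at 0.22 (adjusted p = 0.534) and *AHCTF1*, which starts pore assembly on chromatin, at −0.81 (adjusted p = 0.059). The order of levels for *NUP107* was thus MII, 4-cell, 8-cell with no overlap between neighbours, while for *NUP160* and *NUP37* MII and 4-cell ranges overlapped.

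Only *NUP160* kept its call between the embryo stages in all 18 alternatives. Leaving out 1 library gave 0 to 3 higher and 1 to 4 lower, with *NUP107* lost without 4-cell replicate 2 or 3 or 8-cell replicate 3 (adjusted p 0.0556 to 0.0752), *NUP37* without 4-cell replicate 3 (0.0569), *NXF1* without 4-cell replicate 1 or 3 or 8-cell replicate 1 or 3 (0.053 to 0.0907), *NUP54* without 4-cell replicate 1 or 2 or 8-cell replicate 2 or 3 (0.0537 to 0.0707), and *NUP155* without MII replicate 1, any 4-cell library, or 8-cell replicate 2 or 3 (0.0515 to 0.0769). With the replicate block *NUP107*, *NUP155* and *NUP54* were lost (0.057, 0.0575 and 0.0643). *NUP155* was also lost at the same sum (0.0633), *NUP54* after median-ratio rescaling (0.0665) and with no filter on low values (0.0504), and *NXF1* with no filter (0.05). The 3 stage comparisons share libraries.

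**Figure D4:**
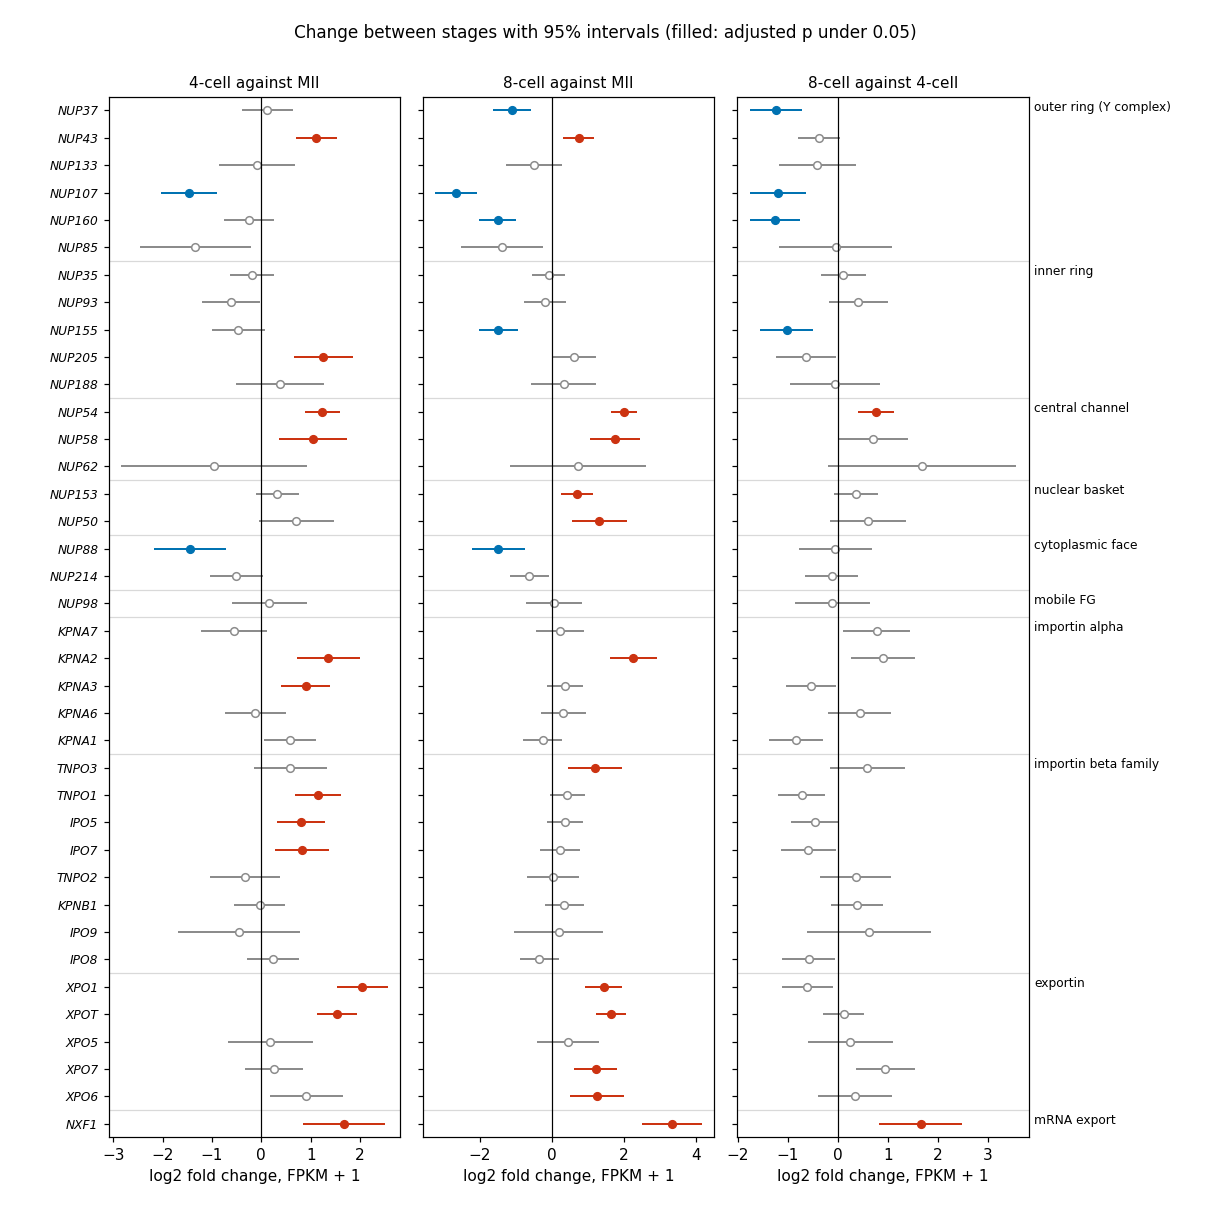
Change of the 38 tested genes in the 3 stage comparisons, as log2 fold change of FPKM + 1 with 95% intervals, grouped by role. Filled red points rose and filled blue points fell at an adjusted p under 0.05, and open points did not pass. All 5 exportins lie right of 0 in both comparisons with MII, though *XPO5* and *XPO7* lie left of 0 in 4-cell embryos under median-ratio and same-sum scaling and *XPO5* also after quantile normalization, and the 6 outer ring genes lie left of 0 in 8-cell against 4-cell, *NUP85* only at −0.04 and above 0 at the same sum.

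Genes of the same pathway with other names were measured beside them, and 36 of 38 such genes could be tested. In 4-cell embryos 9 were higher and 3 lower than in MII, in 8-cell embryos 9 and 7, and between the embryo stages 2 and 4. Among all genes the shares were 24.7% and 6.42%, 27.3% and 10.0%, and 3.06% and 5.24%, beside 25.0% and 8.33%, 25.0% and 19.4%, and 5.56% and 11.1% of the related genes. *SEH1L*, an outer ring part, measured 42.2, 34.3 and 36.4 FPKM in MII, 177, 112 and 110 in 4-cell embryos and 140, 170 and 146 in 8-cell embryos (rises 1.76 and 1.99, adjusted p = 4.5e-04 and 1.7e-04). *CSE1L*, which returns importin alpha to the cytoplasm, rose in 4-cell embryos against MII (1.17, adjusted p = 0.0083) and was at −0.11 in 8-cell embryos against MII (adjusted p = 0.761). It fell between 4-cell and 8-cell (−1.28, adjusted p = 0.021), from 46.1, 42.9 and 38.7 FPKM to 11.9, 21.4 and 18.8, and this call was lost without any 4-cell library or 8-cell replicate 3 (0.0518 to 0.0785). *HIKESHI*, importer of heat shock protein, and *TMEM33* fell in the same comparison (−1.54 and −1.31, adjusted p = 0.0048 and 0.0045). Against MII *HIKESHI* was at 0.12 in 4-cell embryos (adjusted p = 0.689) and fell by 1.42 in 8-cell embryos (adjusted p = 7.2e-04), and *TMEM33* rose by 0.97 in 4-cell embryos (adjusted p = 0.0025) and was at −0.33 in 8-cell embryos (adjusted p = 0.148). The 4-cell rises of *CSE1L* and *TMEM33* were lost under all 3 scalings (adjusted p 0.066 to 0.0977 and 0.0754 to 0.0849).

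Factors that load mRNA for *NXF1* went both ways. *THOC1* of the TREX complex measured 22.7, 30.9 and 17.4 FPKM in MII, 131, 125 and 134 in 4-cell embryos and 97.8, 138 and 138 in 8-cell embryos (2.44 and 2.37, adjusted p = 1.5e-04 and 1.0e-04). The helicase *DDX39B* rose by 1.96 in 4-cell embryos (adjusted p = 0.0042), and *DDX39A* by 3.21 in 8-cell embryos against MII (adjusted p = 0.0011) and by 2.14 over 4-cell embryos (adjusted p = 0.031). The adaptor *ALYREF* rose by 2.55 in 8-cell embryos against MII (adjusted p = 1.2e-04) and by 1.51 over 4-cell embryos (adjusted p = 0.010). Of these, the call of *DDX39A* between the embryo stages was lost without MII replicate 1 or 3, 4-cell replicate 1 or 3, or 8-cell replicate 1 or 2 (0.05 to 0.118), with a pseudocount of 0.1 (0.0538) and with no filter on low values (0.0679). Other parts of the TREX complex fell: *THOC6* by 1.53 in 4-cell and 1.91 in 8-cell embryos (adjusted p = 0.0073 and 0.0019), and *THOC3* and *THOC7* by 1.24 and 1.04 in 8-cell embryos (adjusted p = 0.0095 and 0.0018). *THOC2* fell by 1.0 between the embryo stages (adjusted p = 0.025), a call lost with the replicate block and without MII replicate 1, 4-cell replicate 1 or 3, or 8-cell replicate 2 or 3 (0.0515 to 0.0854). *ENY2*, shared by TREX-2 and a histone deubiquitinase module, fell by 2.01 in 4-cell and by 2.86 in 8-cell embryos (adjusted p = 0.0015 and 1.9e-04). *SNUPN*, the adaptor for import of spliceosomal particles, had a change of 1.76 in 4-cell embryos (adjusted p = 0.046), but MII replicate 2 at 17.8 FPKM overlapped the 4-cell range of 17.5 to 20.0, and the call was lost without any 1 library other than MII replicate 2 and 8-cell replicate 1 (adjusted p 0.0538 to 0.157). It was also lost under all 3 scalings (0.0781 to 0.147), with no filter on low values (0.103) and with the replicate block (0.0607).

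The knockdown asks what loss of the reader YTHDF2 does to mRNAs in 8-cell embryos. The guide strands of the siRNA mixture are shown because their seed, in capitals at bases 2 to 8, is the part by which a siRNA can also pair with other mRNAs; the pairing with the genes described was not examined.
s28148: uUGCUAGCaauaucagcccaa
s28147: uGGUCUAUaguauucaugcca
*YTHDF2* itself measured 112 and 159 FPKM in NC and 8.07 and 4.47 FPKM in YTHDF2-KD libraries, a fall of −4.25 (SE 0.43, adjusted p = 3.7e-04), which goes with the labels.

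None of the 40 genes tested of the 47 passed the adjusted threshold in YTHDF2-KD against NC by limma, with 0 higher and 0 lower, beside a background of 2.06% of the 11004 genes higher and 5.92% lower. At an unadjusted p under 0.05, 11 were lower and 0 higher, beside 17.6% and 11.9% of all genes. By the rule of the study 10 were lower, or 25.0%, beside 15.3% of all genes, and 0 were higher, beside 9.48%. Both YTHDF2-KD libraries lay below both NC libraries for 18 genes and above for 6, where the background was 30.7% and 30.3%. The median change of the genes was −0.39, beside 0.01 over all genes tested, and 14 of 40 were above 0.

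Of the 10 genes lower by the rule of the study, 3 were importin alpha and 3 importin beta family genes. All 7 importin beta family genes tested had a change below 0, with a median of −0.53, and so they had under each scaling and without each library. *TNPO3* had the lowest adjusted p of all 40 genes, at 31.7 and 38.0 FPKM in NC and 19.0 and 7.74 in YTHDF2-KD (−1.43, SE 0.46, adjusted p = 0.068). *IPO5* was at 18 and 29.1 FPKM in NC and 11.1 and 7.27 in YTHDF2-KD (−1.26, SE 0.44, adjusted p = 0.085). *TNPO2*, a close relative of *TNPO1*, was at 6.51 and 15.8 FPKM in NC and 6.51 and 2.72 in YTHDF2-KD, so the groups touched. *KPNB1* was at 4.00 and 5.28 FPKM in NC and 4.09 and 2.77 in YTHDF2-KD, with overlap.

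Among the importin alpha genes 5 of 6 had a change below 0, or 4 of 6 after quantile normalization, without NC replicate 1 and without YTHDF2-KD replicate 1, where *KPNA2* turned above 0 too, and *KPNA7* was the exception. *KPNA7* measured 2364 and 1589 FPKM in NC and 3352 and 2765 in YTHDF2-KD (0.65, SE 0.35, adjusted p = 0.226), with no overlap. *KPNA4* measured 47.0 and 63.8 FPKM in NC and 29.9 and 21.1 in YTHDF2-KD (−1.09, SE 0.41, adjusted p = 0.106). *KPNA6* measured 47.9 and 63.7 FPKM in NC and 32.0 and 16.2 in YTHDF2-KD (−1.24, SE 0.44, adjusted p = 0.087). *KPNA1* measured 11.6 and 28.9 FPKM in NC and 9.75 and 7.32 in YTHDF2-KD (−1.04, adjusted p = 0.163). *KPNA2* was at 489 and 291 FPKM in NC and 289 and 378 in YTHDF2-KD, with overlap, *KPNA3* at 44.0 and 32.5 and then 32.4 and 31.2, and *KPNA5* under 0.5 in all 4 libraries. The share of *KPNA7* in the summed importin alpha FPKM was 78.7% and 76.8% in NC and 89.5% and 85.9% in YTHDF2-KD libraries.

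Export receptors and pore genes were mixed. *XPO1* was at 90.0 and 148 FPKM in NC and 55.5 and 53.6 in YTHDF2-KD (−1.07, SE 0.41, adjusted p = 0.107). *XPOT* measured 18.6 and 18.1 FPKM in NC and 16.8 and 23.5 in YTHDF2-KD, and *NXF1* 65.3 and 37.3 and then 32.5 and 37.0. *NUP107* was at 10.5 and 17.4 FPKM in NC and 5.67 and 3.80 in YTHDF2-KD (−1.36, SE 0.44, adjusted p = 0.070), and *NUP85* at 9.25 and 11.2 and then 4.56 and 3.77 (−1.12, adjusted p = 0.106). Both YTHDF2-KD libraries lay above both NC libraries for *KPNA7*, *NUP35*, *NUP37*, *NUP88*, *NUP93* and *XPO6*. The largest of these changes were those of *NUP88*, at 122 and 85.5 FPKM in NC and 155 and 216 in YTHDF2-KD (0.83, adjusted p = 0.177), and *NUP93*, at 36.6 and 29.3 and then 53.4 and 61.2 (0.78, adjusted p = 0.204). *NUP210L* was at 1.37 and 2.04 FPKM in NC and 0.77 and 0.35 in YTHDF2-KD, *NUP98* at 29.8 and 38.1 and then 23.4 and 17.2, *NUP153* at 83.2 and 63.4 and then 95.9 and 74.0, *NUP37* at 84.2 and 59.3 and then 87.2 and 163, and *NUP54* at 370 and 148 and then 313 and 361.

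**Figure D5:**
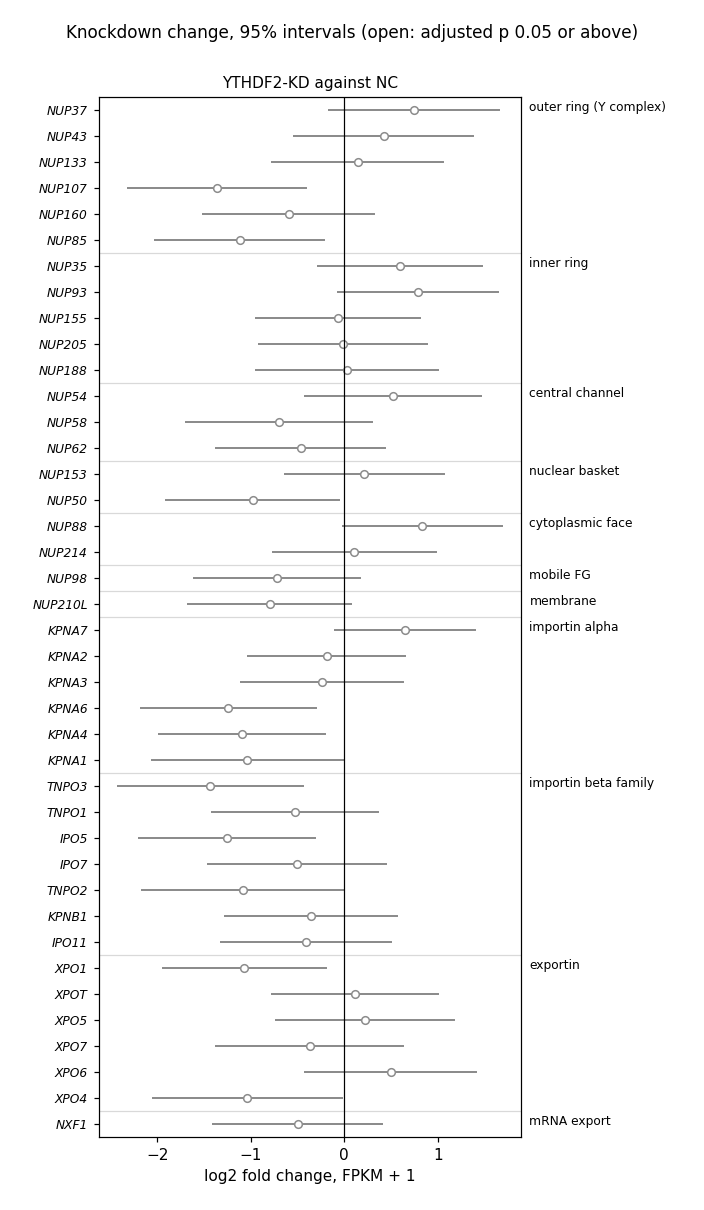
Change of the 40 tested genes in YTHDF2-KD against NC embryos, as log2 fold change of FPKM + 1 with 95% intervals, grouped by role. No gene passed the adjusted threshold, and all 7 importin beta family genes tested lie left of 0. *KPNA7* is the importin alpha gene right of 0, joined by *KPNA2* after quantile normalization, without NC replicate 1 and without YTHDF2-KD replicate 1.

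Of the 36 related genes tested, 0 passed the adjusted threshold in the knockdown in either direction by limma, and 4 were higher and 1 lower at an unadjusted p under 0.05, or 11.1% and 2.78%, beside 11.9% and 17.6% of all genes. The knockdown counts rest on few libraries: without YTHDF2-KD replicate 1, 5 genes were lower by the adjusted p, namely *IPO5* (0.0366), *KPNA6* (0.0125), *NUP107* (0.0354), *TNPO2* (0.0405) and *TNPO3* (0.00299), beside 10.3% of all genes. The spread then came from the 2 NC libraries alone, and the lone YTHDF2-KD library was assumed to vary like them. The median change of the genes was −0.10 without NC replicate 1 and −0.40 without NC replicate 2, beside 0.14 and −0.06 over all genes tested. It was −0.48 without YTHDF2-KD replicate 1 and −0.22 without YTHDF2-KD replicate 2, beside −0.09 and 0.04. The 9 oocyte markers summed to 777 and 494 FPKM in NC and 1028 and 1942 in YTHDF2-KD, the 12 cumulus and granulosa cell markers to 56.8 and 47.6 and then 94.98 and 84.9, with *FSHR* and *HSD17B1* at 0, and the 3 sperm markers to 12.6 and 12.3 and then 25.1 and 3.51. Their part in the knockdown values was not tested.

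NC and untreated 8-cell embryos differ in injection and experiment, and their tables were normalized separately, so levels are only set side by side. Of 42 genes with enough signal, both NC libraries lay above all untreated 8-cell libraries for 20 and below for 8, or among all such genes for 35.2% and 33.6%. *KPNA4* and *KPNA6* stood furthest apart among the importin alpha genes, at 47.0 and 63.8 FPKM and 47.9 and 63.7 FPKM in NC beside 1.10 to 1.72 and 3.45 to 4.59 FPKM in the untreated 8-cell libraries. In the other direction *XPOT* was at 18.6 and 18.1 FPKM in NC beside 95.9 to 119, and *NUP54* at 370 and 148 beside 1331 to 1438. The summed importin beta family was 90.3 and 120 FPKM in NC, 64.8 and 40.6 in YTHDF2-KD and 37.7 to 43.4 in untreated 8-cell libraries. *YTHDF2* was at 10.8 to 16.7 FPKM in the untreated 8-cell libraries. Injection, experiment and processing cannot be told apart here.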

How the data were processed

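FPKM values deposited by the authors, per gene and library, were used for all 13 libraries. The authors mapped the reads with HISAT2 on goat assembly ARS1, retained those with 1 place, obtained counts by HTSeq and divided by length and depth, and whether counting used strand is not given in the sources used here. Groups and replicate numbers came from the sample titles, where NC libraries are called WT. The tables differ in the names they list, and names listed more than once in a table were left out.

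Genes averaging 1 FPKM or more in the libraries fitted were tested on log2(FPKM + 1) with limma 3.58.1 (lmFit, contrasts, eBayes with trend) in R 4.3.3, the 9 untreated libraries in 1 fit and the 4 injected in another, since their tables were made apart. Tests are two-sided, and p-values were adjusted by Benjamini and Hochberg over all genes of a fit, with a threshold of 0.05. A fold change on this scale understates that of low genes. The study's own calling used counts, which is why its rule is only given beside this test. For 17918 of 17918 genes above 0 the untreated FPKM were whole multiples of 1 fragment (tolerance 0.02), which gave the library totals and the fragments behind each value. limma voom on these was an alternative. In the injected libraries a share of 0.523 to 0.589 at best was whole, and depth was not recovered. The script was tested on simulated data.

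Shown with every library are all importin alpha genes and *KPNB1*, up to 10 genes per direction and comparison by size of change at an adjusted p under 0.05, and the highest gene of each role. From the related genes up to 5 per comparison with more than 2-fold change are named. *NUP62*, *NUP85*, *NUP93*, *AHCTF1*, *NDC1*, *SEC13*, *THOC2*, *THOC3*, *THOC6*, *THOC7*, *TPR* and the knockdown genes of lowest p were added after their values were seen. The genes and lists were chosen with earlier results of these data known. All 47 names matched a RefSeq symbol. Tables and plots were made in Python 3.11.15 (pandas 2.3.3, matplotlib 3.10.9).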

Additional observations from a re-analysis of the deposited data

How the results depend on the processing

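Of the changes past the adjusted threshold or the rule of the study, with up to 5 related genes per comparison, 20 in 4-cell and 23 in 8-cell embryos against MII, 11 between the embryo stages and 10 in the knockdown, none turned sign under the alternatives run. Over all the nucleoporin and receptor genes tested the sign turned in 1 or more alternatives for 9 and 11 of 38 against MII, 6 of 38 between the embryo stages and 10 of 40 in the knockdown, none of them past either. In 4-cell embryos against MII the count of higher genes, 12, was 6 at the same sum of FPKM, and the count of lower genes, 2, was 7 after median-ratio rescaling, 9 at the same sum and 6 after quantile normalization. For 8-cell against MII the 12 higher became 7 at the same sum and the 5 lower 9 after quantile normalization. For 8-cell against 4-cell the 2 higher became 1 with no filter on low values and 4 with voom on the recovered fragments. In the knockdown the 0 lower became 1 (*TNPO3*) when only genes averaging 5 FPKM or more were tested. With no filter on low values the knockdown fit called 0 genes in all.

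Leaving out each library in turn gave 9 to 14 higher and 2 to 5 lower in 4-cell embryos, 9 to 13 and 5 to 6 in 8-cell embryos, 0 to 3 and 1 to 4 between the embryo stages, and 0 to 0 and 0 to 5 in the knockdown, where the lone library left in a group was assumed to vary like the other group. Over the stages, deviations of same-numbered libraries correlated at −0.508 to 0.201, beside −0.371 to 0.51 for libraries of other numbers. In the knockdown these values were −0.152 and 0.152. With 2 libraries per group they can differ only in sign, so they cannot decide whether the numbers pair the libraries. With the replicate block there were 10 higher and 2 lower in 4-cell embryos, 12 and 5 in 8-cell embryos, 1 and 2 between the embryo stages and 0 and 0 in the knockdown. Crossing the numbers of the knockdown block, chosen after seeing the data, gave 6 lower and 0 higher, beside 12.8% and 6.36% of all genes.

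Groups of 2 and 3 libraries limit the precision, genes under 1 FPKM were not tested, the study of each untreated library is not given, and the scale between MII and embryo tables decides the share of higher calls.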
